A study of Rattus norvegicus with 12 samples.

Results

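Collagens were described here as all genes of the L5 dorsal root ganglion (DRG) tables whose symbol is Col, a type number, the letter a and a chain number. The rule found 26 collagen genes in each of the 2 deposited tables, among 16632 gene symbols that had a row of their own in either table. Where a symbol had several rows, the row with the highest mean level was taken. The DRG holds the cell bodies of primary sensory neurons, and the study asked how its RNA changes after nerve injury and how it changes when the long noncoding RNA Neat1 is targeted. In SNL rats the L5 spinal nerve was tightly ligated on the left side, a model of neuropathic pain, and the ipsilateral L5 DRG was taken 14 days later. Control was the contralateral, intact side 14 days after SNL. In the SNL+Neat1 shRNA group a serotype 6 adeno-associated virus (AAV) vector with an shRNA against Neat1 was injected into the L5 DRG 7 days before SNL, and in the SNL+control shRNA group the vector carried a scrambled shRNA. Both AAV groups therefore had the ligation, the injection into the ganglion and the vector, and both were sampled 14 days after SNL. All rats were Sprague Dawley, male by the labels, and 5 to 6 weeks old when used, although the methods of the study name rats of both sexes. Each group had 3 libraries, and the tables give 1 pooled FPKM value per group (fragments mapped to a gene, scaled to transcript length and to the size of the library), so no spread between animals, no standard deviation and no test can be given. A gene is called higher or lower here only in the sense that its ratio of pooled values was above 1.5 or below the inverse of 1.5, with a mean FPKM of the pair of groups of at least 1. The 2 tables were assembled and normalized separately. Comparisons were made within a table, apart from the levels set across the tables under other observations at the end.

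Collagens are extracellular matrix proteins of which chains wind into helical trimers. Fibrillar collagens build the tensile fibres of connective tissue, type IV collagen forms the network of basement membranes, and FACIT collagens (fibril-associated collagens with interrupted helices) sit on the surface of fibrils. In a ganglion or nerve, fibroblasts of the epineurium and endoneurium, perineurial cells, vascular cells and Schwann cells with their basal lamina are known to make collagen. In whole ganglia, fewer cells of a type and less RNA per cell cannot be told apart.

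The Neat1 row was read in every group as a check of the labels. It was at 293.6 FPKM in SNL and 140.6 FPKM in Control, and at 374.0 FPKM in the group labelled Neat1 shRNA and 355.4 FPKM in the control shRNA group, a ratio of 1.05. This row of the pooled polyadenylated RNA thus had no lower level under the Neat1 shRNA label, and that group is named by its label throughout. The study's own qPCR of Neat1 was not analysed here. None of the 10 listed neuronal markers (among them Tubb3, Prph and Snap25) was at 0 in any group, which does not by itself identify the tissue. Their summed level was 9268 FPKM in SNL and 15761 FPKM in Control, and 8050 FPKM in the group labelled Neat1 shRNA and 7399 FPKM in control shRNA.

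Collagen RNA was higher in the ligated ganglion. Of the 26 genes, 22 had a mean FPKM of at least 1 in the SNL and Control table, and 12 of these were higher in SNL, 2 were lower and 8 lay within the fold. Over all 10827 symbols that passed the filter, 18.3% were higher and 16.0% lower by the same rule. The median log2 ratio of the 22 collagen genes was 0.66, a ratio of 1.58, and that of all symbols was 0.00. The 4 genes below the filter were Col1a2, Col4a3, Col6a4 and Col17a1, and the counts above leave them out. With no filter on level, 14 of the 26 were higher and 3 lower, beside 22.8% higher and 17.9% lower over all symbols above 0 in both groups. Of the 12 higher genes, 5 were fibrillar and 5 were of the other collagens, with 1 FACIT gene and 1 basement membrane gene beside them. For the FACIT class, with 4 genes past the filter, that count is near the share over all symbols. The 12 higher genes included Col3a1 and Col1a1, the most abundant collagens of the ganglion. Col5a3, also among the most abundant, lay within the fold.

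**Figure D1:**
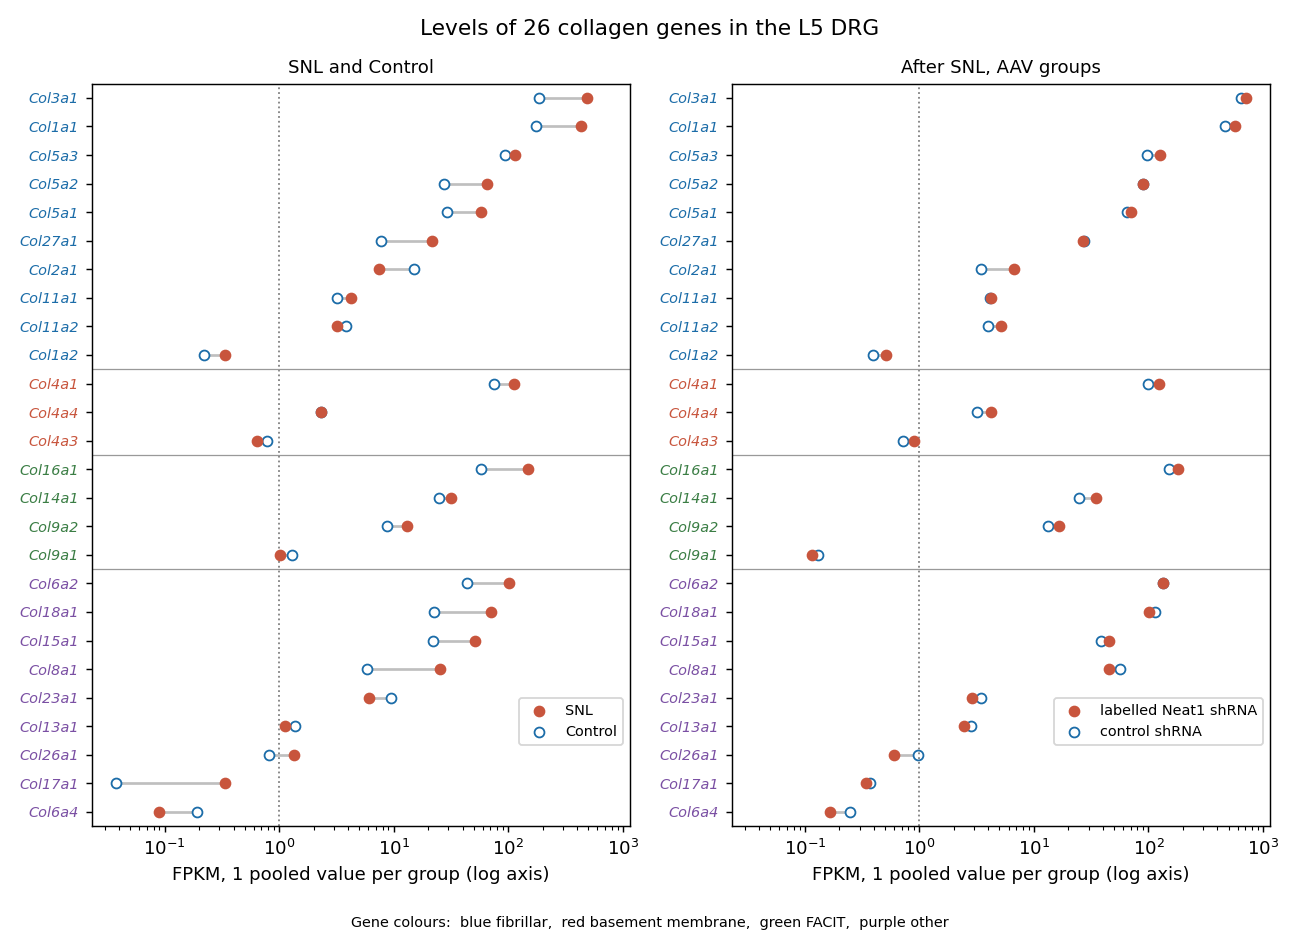
Levels of the 26 collagen genes as pooled FPKM on a log axis, with SNL and Control on the left and the AAV groups on the right. Filled points are SNL or the group labelled Neat1 shRNA, open points Control or control shRNA, the dotted line marks 1 FPKM, and the colours of the gene names mark the class. Filled points lie to the right of open points for Col3a1, Col1a1, Col16a1, Col18a1 and Col8a1 on the left, and nearly all points lie on top of each other on the right.

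The fibrillar class had 10 members, 9 of which passed the filter. In this class 5 genes were higher in SNL and 1 was lower, and the median log2 ratio was 0.997. Col3a1, the only chain of type III collagen and a fibre component of soft tissue, was the most abundant collagen at 482.8 FPKM in SNL and 187.0 FPKM in Control, a ratio of 2.58. It stood at rank 116 of all symbols by level in SNL and at rank 374 in Control. Col1a1, a chain of type I collagen, the main protein of scar and tendon, was at 428.1 FPKM in SNL and 174.9 FPKM in Control, a ratio of 2.45. Its rank by level was 142 in SNL and 410 in Control. The level of Col1a1 was therefore close to that of Col3a1 in each group, at 0.887 of it in SNL and 0.935 of it in Control.

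Type V collagen is a minor fibril component that controls how fibrils start and how thick they grow, and its 3 chains were not alike. Col5a2 was at 65.4 FPKM in SNL and 27.6 FPKM in Control, a ratio of 2.37. Col5a1 was at 58.2 FPKM in SNL and 29.2 FPKM in Control, a ratio of 1.996. Col5a3, a chain found in fewer tissues, was the most abundant of these chains at 113.9 FPKM in SNL and 93.5 FPKM in Control, a ratio of 1.22 that stayed within the fold. The level of Col5a1 was 0.511 of the Col5a3 level in SNL and 0.312 of it in Control. Col27a1, a fibrillar collagen known from cartilage, was at 21.5 FPKM in SNL and 7.72 FPKM in Control, and its ratio of 2.79 was the highest of the class.

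Unlike Col27a1, the cartilage-type fibrillar collagens of types II and XI had no gene above the fold. Col2a1, the main fibrillar collagen of cartilage, was lower, at 7.44 FPKM in SNL and 14.97 FPKM in Control, which is 2.01-fold lower. Col11a1, a chain of the type XI collagen that nucleates cartilage fibrils, was at 4.28 FPKM in SNL and 3.19 FPKM in Control, a ratio of 1.34. Its partner Col11a2 was at 3.19 FPKM in SNL and 3.85 FPKM in Control, a ratio of 0.827, so the Col11a1 level was 1.34 of the Col11a2 level in SNL and 0.827 of it in Control. In the list of 12 cartilage genes, all found in the table and 6 of them past the filter, the summed level was 54.0 FPKM in SNL and 118 FPKM in Control. Within that list 2 genes were lower in SNL, Hapln1 (a link protein of cartilage matrix, 0.0242 FPKM in SNL and 5.76 FPKM in Control) and Lect1 (chondromodulin, 37.1 FPKM in SNL and 101 FPKM in Control). Ucma (3.43 FPKM in SNL and 0.805 FPKM in Control) and Prg4 (2.85 FPKM in SNL and 0.537 FPKM in Control) were higher. Ucma, Prg4 and Hapln1 were each under 1 FPKM in 1 group, so their calls lean on the group in which they were high. Over all symbols past the filter, 18.3% were higher and 16.0% lower. Matn1 was at 0 in every group, and Acan, a proteoglycan that defines cartilage, was at 0.0419 FPKM in SNL and 0.654 FPKM in Control. The part of these cartilage genes in the lower Col2a1 value was not tested.

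Col1a2, the partner chain of Col1a1 in type I collagen, was listed at 0.335 FPKM in SNL and 0.221 FPKM in Control, far from the Col1a1 level in the same group. The rn5 tables carry 2 rows for it on chromosome 4, at 29443178 to 29478105 and at 31405253 to 31440180, each 34928 bp long, whereas the GRCr8 annotation has 1 entry of that length. The second row was at 0.229 FPKM in SNL and 0.120 FPKM in Control. Reads shared between near-identical copies can be lost or split in counting, so the Col1a2 level is uncertain and no ratio between type I chains is drawn from it.

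The basement membrane class held 3 type IV chains, 2 of them past the filter. Col4a1, a chain of the classical type IV network found in nearly all basement membranes, was at 112.9 FPKM in SNL and 74.6 FPKM in Control. Its ratio of 1.51 was just past the fold, the lowest among the 12 higher genes. Col4a4, a chain of the specialised network known from kidney, was at 2.34 FPKM in both SNL and Control, a ratio of 0.9997. Col4a3, its partner, was below the filter at 0.643 FPKM in SNL and 0.782 FPKM in Control. The Col4a1 level was 48.3 times that of Col4a4 in SNL and 31.9 times in Control, so the classical chain outweighed the specialised chains in either group.

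Among the 4 FACIT members, all past the filter, 1 was higher in SNL, a count near the share over all symbols. Col16a1, which is found near fibrils and cell surfaces in many connective tissues, was the third most abundant collagen in SNL at 148.1 FPKM, against 57.7 FPKM in Control, a ratio of 2.57. Col14a1, a FACIT that binds decorin and type I fibrils, was at 31.5 FPKM in SNL and 25.0 FPKM in Control, a ratio of 1.26. Col9a2, a chain of the cartilage-type FACIT collagen IX, was at 13.0 FPKM in SNL and 8.78 FPKM in Control, and its ratio of 1.48 was just short of the fold, so it is not among the higher genes. This row spans 186291 bp in the SNL and Control table, and Col9a2 has a second row there at 2.70 FPKM in SNL and 2.82 FPKM in Control. Col9a1, another chain of collagen IX, was at 1.01 FPKM in SNL and 1.28 FPKM in Control, a ratio of 0.791.

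The other collagens (beaded-filament, network-forming, multiplexin and transmembrane types) held 9 members, 7 of them past the filter. In this class 5 genes were higher in SNL and 1 was lower, and the median log2 ratio was 1.20. Col8a1, a short-chain collagen of blood vessel walls and of the membrane under the corneal endothelium, was at 25.5 FPKM in SNL and 5.84 FPKM in Control. Its ratio of 4.36 was the largest of the 22 collagen genes past the filter, and 2.62% of all symbols past the filter had a larger one. Col18a1 and Col15a1 are the multiplexins, basement membrane zone collagens whose C-terminal fragments are endostatin and a related peptide. Col18a1 was at 71.3 FPKM in SNL and 22.5 FPKM in Control, a ratio of 3.17. Col15a1 was at 50.9 FPKM in SNL and 22.2 FPKM in Control, a ratio of 2.30. The pair was nearly level in Control, where Col18a1 was 1.02 of Col15a1, and stood at 1.40 in SNL.

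Col6a2, a chain of the beaded filaments around cells and basement membranes, was at 102.2 FPKM in SNL and 43.3 FPKM in Control, a ratio of 2.36. Col26a1, a short collagen, was at 1.34 FPKM in SNL and 0.813 FPKM in Control, a ratio of 1.65. It passed the filter because its SNL level was above 1, so its call leans on the group in which it was high. The lower member of the class was Col23a1, a transmembrane collagen, at 6.03 FPKM in SNL and 9.49 FPKM in Control, which is 1.57-fold lower. Col13a1, a transmembrane collagen known at neuromuscular junctions, was at 1.13 FPKM in SNL and 1.38 FPKM in Control, a ratio of 0.818. Col17a1, a hemidesmosome collagen of skin, was below the filter at 0.337 FPKM in SNL and 0.0377 FPKM in Control. Col6a4 was below the filter too, at 0.0900 FPKM in SNL and 0.191 FPKM in Control.

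**Figure D2:**
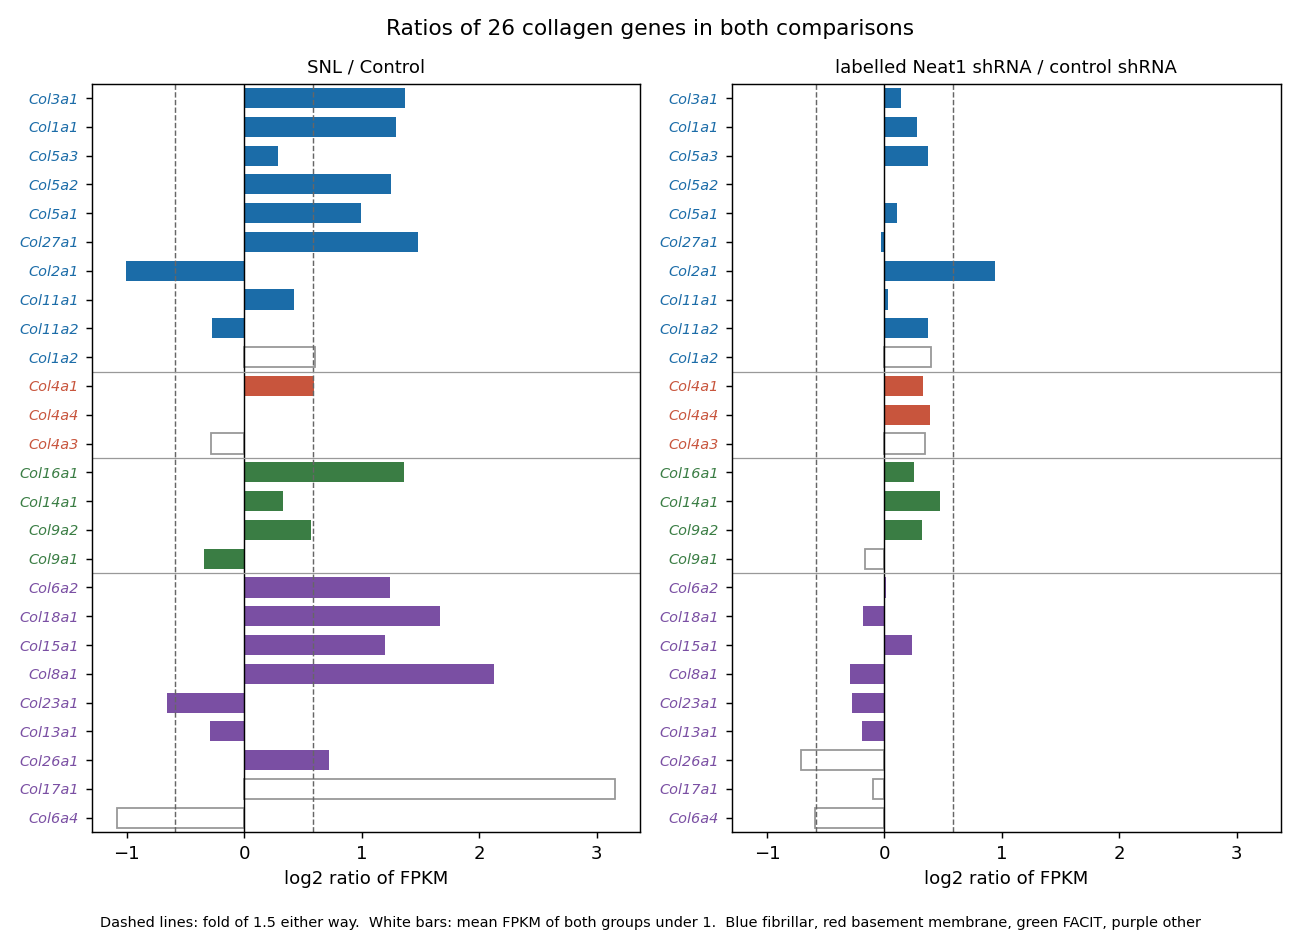
Log2 ratios of the 26 collagen genes, SNL over Control on the left and the group labelled Neat1 shRNA over control shRNA on the right, with bars coloured by class (blue fibrillar, red basement membrane, green FACIT, purple other) and dashed lines at a fold of 1.5 either way. White bars are genes whose mean FPKM was under 1. On the left 12 coloured bars pass the upper line and those of Col2a1 and Col23a1 the lower one, and on the right the bar of Col2a1 passes the upper line and no coloured bar the lower.

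Promoter sequences were read for members whose ratios differed, to show which bases stand before genes that were higher, flat or lower. The RefSeq promoter table (GRCr8, a later build than that of the expression tables) held a window for 21 of the 26 genes, and Col1a1, Col2a1, Col3a1, Col6a2 and Col14a1 had none. The 250 bases before the start are shown 5′ to 3′ for Col8a1 and Col18a1 (the largest ratios), for Col4a1 and Col4a4 (the type IV chains, just past the fold and flat) and for Col23a1 (lower). Capitals mark matches on either strand to the letters CCAAT of the box of that name, to the TATA box letters TATAAA, to the GC box letters GGGCGG and to the AP-1 site letters TGANTCA. On the other strand GGGCGG reads as CCGCCC and the CCAAT box reads as ATTGG, and no matches to different motifs share bases in these windows.
Col8a1 promoter, GRCr8 chr11:56246532-56246781, plus strand: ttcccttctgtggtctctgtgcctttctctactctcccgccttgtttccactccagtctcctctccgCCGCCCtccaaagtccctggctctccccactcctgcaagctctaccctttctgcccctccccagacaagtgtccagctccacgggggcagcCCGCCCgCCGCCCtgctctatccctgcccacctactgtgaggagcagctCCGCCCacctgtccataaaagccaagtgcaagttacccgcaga
Col18a1 promoter, GRCr8 chr20:11473395-11473644, plus strand: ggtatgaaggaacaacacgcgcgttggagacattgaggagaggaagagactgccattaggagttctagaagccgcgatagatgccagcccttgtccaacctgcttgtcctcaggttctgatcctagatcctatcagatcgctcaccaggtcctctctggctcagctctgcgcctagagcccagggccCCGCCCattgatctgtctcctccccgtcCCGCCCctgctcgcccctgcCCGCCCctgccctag
Col4a1 promoter, GRCr8 chr16:84885347-84885596, plus strand: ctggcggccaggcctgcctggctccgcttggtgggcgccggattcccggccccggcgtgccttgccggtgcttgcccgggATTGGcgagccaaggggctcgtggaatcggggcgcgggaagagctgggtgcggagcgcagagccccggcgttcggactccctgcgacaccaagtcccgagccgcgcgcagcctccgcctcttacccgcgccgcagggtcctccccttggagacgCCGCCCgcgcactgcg
Col4a4 promoter, GRCr8 chr9:91323578-91323827, minus strand: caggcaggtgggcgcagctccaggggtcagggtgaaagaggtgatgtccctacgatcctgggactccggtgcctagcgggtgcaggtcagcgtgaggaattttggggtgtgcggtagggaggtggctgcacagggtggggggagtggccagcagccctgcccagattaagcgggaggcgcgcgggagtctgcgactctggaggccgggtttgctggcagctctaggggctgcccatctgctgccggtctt
Col23a1 promoter, GRCr8 chr10:36050077-36050326, plus strand: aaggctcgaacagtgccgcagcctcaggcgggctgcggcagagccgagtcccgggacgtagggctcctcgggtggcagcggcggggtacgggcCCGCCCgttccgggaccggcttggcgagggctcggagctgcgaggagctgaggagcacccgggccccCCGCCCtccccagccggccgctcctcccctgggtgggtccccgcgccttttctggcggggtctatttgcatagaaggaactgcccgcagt

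The Col8a1 window held 4 matches to GGGCGG, that of Col18a1 held 3, that of Col23a1 held 2 and that of Col4a1 held 1 beside 1 match to CCAAT, while the Col4a4 window held none of these letters. Over all 21 windows, GGGCGG was found in 11, and it was found in 30.5% of all 33469 windows of the table. CCAAT was found in 6 of the 21 and in 34.0% of all windows, TATAAA in 3 of the 21 and in 12.9% of all windows, and TGANTCA in none of the 21 and in 6.34% of all windows. Among the 9 higher genes with a window, 6 held GGGCGG, 1 held CCAAT and none held TATAAA. The collagen windows had a median GC content of 62%, and all windows of 51.2%, which moves with the count of GGGCGG. Col4a1 starts 77 bp from the start of Col4a2 on the opposite strand, and Col4a3 starts 413 bp from that of Col4a4, so the members of each pair face away from each other. A match is a description of letters and says nothing about binding.

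The summed level of the 26 genes was 1754 FPKM in SNL and 818 FPKM in Control, 2.14-fold higher. RefSeq of GRCr8 names 44 collagen symbols, and those outside the 26, among them Col4a2, are not in this sum. Col1a2 enters at its uncertain level. The shares below are therefore those of the 26 genes and not of all collagen RNA. Col1a1 and Col3a1 together made up 51.9% of this sum in SNL and 44.2% in Control. Without them the sum was still 1.85-fold higher. Fibrillar genes held 67.6% of the sum in SNL and 66.2% in Control, basement membrane genes 6.61% in SNL and 9.50% in Control, FACIT genes 11.04% in SNL and 11.3% in Control, and the other collagens 14.8% in SNL and 12.9% in Control. The level of the fibrillar sum was 2.19-fold higher, that of the basement membrane sum 1.49-fold, that of the FACIT sum 2.09-fold and that of the other collagens 2.45-fold. Of the 26 genes, 6 were at 100 FPKM or more in SNL and 2 in Control.

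**Figure D3:**
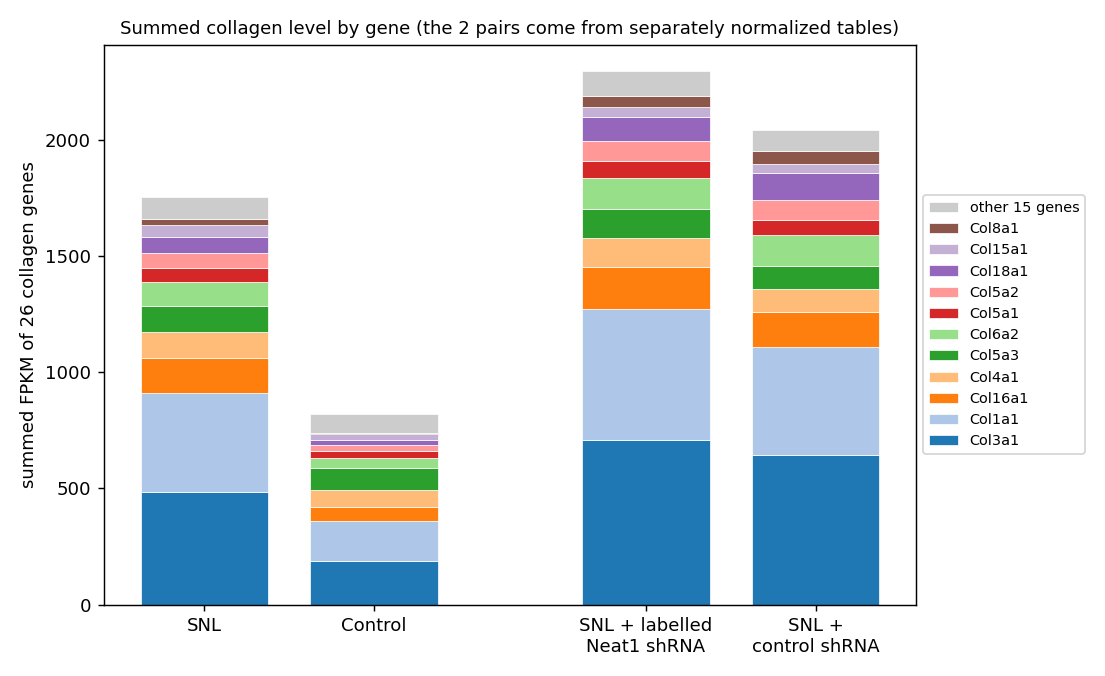
Summed FPKM of the 26 collagen genes, stacked by gene, for SNL, Control, SNL with the vector labelled Neat1 shRNA and SNL with control shRNA. Col3a1 and Col1a1 are the lowest blocks, and the bars reach 1754, 818, 2295 and 2041 FPKM. The bars of the left pair and those of the right pair come from separately normalized tables.

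Many genes that process collagen were higher alongside it. Of 34 listed genes of collagen biosynthesis, 28 had a row and 26 passed the filter. Of these, 15 were higher in SNL and 2 lower, with a median log2 ratio of 0.70. Over all symbols that passed the filter, 18.3% were higher and 16.0% lower. The counts of the smaller groups of synthesis and binding genes below are to be read beside these shares. Proline hydroxylation stabilises the helix, and 4 of its 8 genes were higher. They were P4ha2, a catalytic subunit (15.9 FPKM in SNL and 8.26 FPKM in Control), P4hb, protein disulfide isomerase (150 FPKM in SNL and 88.5 FPKM in Control), Crtap (7.35 FPKM in SNL and 4.06 FPKM in Control) and P3h1 (14.7 FPKM in SNL and 9.44 FPKM in Control). Ppib, a prolyl isomerase and the most abundant gene of this group, was within the fold at 187 FPKM in SNL and 144 FPKM in Control. Of 4 genes of lysine hydroxylation and glycosylation, 1 was higher, P3h4 (8.45 FPKM in SNL and 4.28 FPKM in Control). That count is near the share over all symbols. Plod1, a lysyl hydroxylase, was within the fold at 34.1 FPKM in SNL and 29.7 FPKM in Control, and so was the galactosyltransferase gene Colgalt1 at 35.4 FPKM in SNL and 23.9 FPKM in Control.

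Serpinh1, which encodes the collagen chaperone HSP47, was at 223 FPKM in SNL and 120 FPKM in Control, a ratio of 1.85. Fkbp10, another chaperone of the endoplasmic reticulum, was at 17.1 FPKM in SNL and 7.80 FPKM in Control. Both belong to a group of 4 chaperone and export genes, of which the other two, Fkbp14 and the coat protein gene Sec23a, lay within the fold. Propeptide cleavage, which lets fibrils form outside the cell, had 6 genes past the filter. Of these, 4 were higher: Pcolce, an enhancer of the C-proteinase (80.3 FPKM in SNL and 26.4 FPKM in Control), Bmp1, that proteinase (45.3 FPKM in SNL and 19.6 FPKM in Control), and the N-proteinase genes Adamts2 (17.5 FPKM in SNL and 8.45 FPKM in Control) and Adamts14 (4.01 FPKM in SNL and 1.95 FPKM in Control). Tll1 (0.921 FPKM in SNL and 4.14 FPKM in Control) and Adamts3 (1.33 FPKM in SNL and 2.598 FPKM in Control) were lower, so relatives of the same enzymes went opposite ways. The call of Tll1 leans on its Control level, since its SNL level was under 1.

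All 4 genes of cross-linking past the filter were higher. Loxl1 was at 14.8 FPKM in SNL and 4.43 FPKM in Control, Lox, lysyl oxidase, at 7.72 FPKM in SNL and 2.57 FPKM in Control, Loxl2 at 7.70 FPKM in SNL and 3.70 FPKM in Control, and Loxl3 at 6.14 FPKM in SNL and 3.95 FPKM in Control. The median log2 ratio of this group was 1.32, the highest of the biosynthesis groups. Beside them, 5 of 5 fibril-associated proteoglycans past the filter were higher, led in level by decorin (Dcn, 607 FPKM in SNL and 268 FPKM in Control) and lumican (Lum, 158 FPKM in SNL and 60.1 FPKM in Control). Biglycan (Bgn) had the largest ratio of these, at 114 FPKM in SNL and 42.7 FPKM in Control.

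Of 4 collagen receptors past the filter, 2 were higher. Mrc2, an endocytic collagen receptor, was at 8.49 FPKM in SNL and 3.79 FPKM in Control, and Ddr2, a receptor kinase for fibrillar collagen, at 8.28 FPKM in SNL and 4.28 FPKM in Control. Ddr1, the related kinase, was within the fold at 54.5 FPKM in SNL and 46.0 FPKM in Control. Adgrg1, an adhesion receptor for type III collagen, was lower at 43.4 FPKM in SNL and 65.4 FPKM in Control. Its ratio of 0.663 was only just past the inverse of the fold. The gene of its ligand, Col3a1, was higher. Of 8 matrix partners, 6 were higher, with a median log2 ratio of 2.17. The largest were Thbs2 (39.6 FPKM in SNL and 6.09 FPKM in Control), Postn, periostin (14.0 FPKM in SNL and 2.69 FPKM in Control), Thbs1 (21.9 FPKM in SNL and 4.23 FPKM in Control) and Tgfbi (182 FPKM in SNL and 37.8 FPKM in Control). Sparc, a collagen-binding matricellular protein and the most abundant of these partners, was within the fold at 1334 FPKM in SNL and 954 FPKM in Control.

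**Figure D4:**
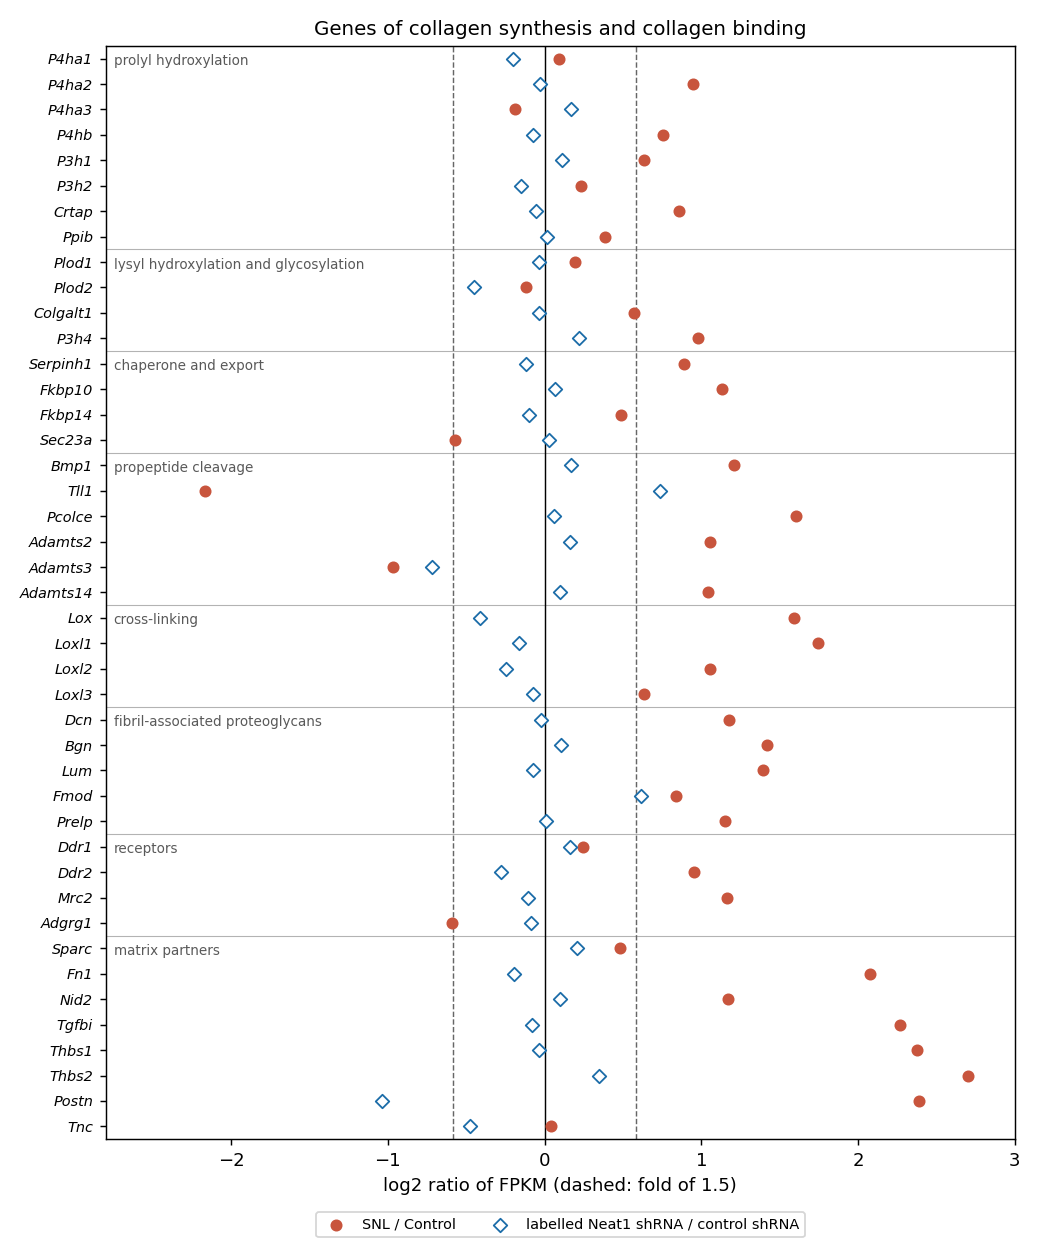
Log2 ratios of 43 genes of collagen synthesis and collagen binding by role, with filled points for SNL over Control, open diamonds for the group labelled Neat1 shRNA over control shRNA and dashed lines at a fold of 1.5. Filled points lie right of the upper line for all 4 cross-linking genes and all 5 proteoglycans, and nearly all diamonds lie between the lines, with Tll1 and Fmod above and Adamts3 and Postn below.

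Marker lists of cells in the ganglion are given beside the collagens, to be read against the 18.3% higher and 16.0% lower over all symbols. Of 8 fibroblast markers past the filter, 6 were higher in SNL and none lower, with a summed level of 290 FPKM in SNL and 198 FPKM in Control. Of 6 perineurial markers, 4 were higher and none lower, with a summed level of 300 FPKM in SNL and 167 FPKM in Control, and Lypd2 at 0 in every group. Krt19 had by far the largest ratio of them, at 31.7 FPKM in SNL and 1.52 FPKM in Control. Endothelial markers had 1 of 10 higher (112 FPKM in SNL and 92.9 FPKM in Control as sums), mural markers 3 of 10 (162 FPKM in SNL and 133 FPKM in Control), and Schwann cell markers 2 of 8 higher and 1 lower (5990 FPKM in SNL and 7406 FPKM in Control). Satellite glia markers had none of 7 higher and 3 lower (2908 FPKM in SNL and 4412 FPKM in Control as sums). Of 10 neuronal markers, 7 were lower and 1 was higher, Tubb3 (3689 FPKM in SNL and 2403 FPKM in Control). All 9 macrophage markers past the filter were higher (135 FPKM in SNL and 31.0 FPKM in Control as sums). Some of these macrophage markers, such as Itgam, were under 1 FPKM in Control, so their calls lean on SNL. The endothelial, mural and Schwann cell counts lay nearer to those shares than the fibroblast, perineurial, macrophage and neuronal counts. The part of these cell types in the collagen values was not tested.

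The shRNA comparison asks whether targeting Neat1 in injured neurons changes the injured ganglion. Nearly all collagen ratios lay within the fold in the AAV groups, and more of them were above 1 than under it. Of the 26 genes, 20 passed the filter, and 1 of these was higher in the group labelled Neat1 shRNA and none was lower, against 1.27% higher and 3.51% lower over all 10967 symbols. The median log2 ratio of the 20 genes was 0.19, a ratio of 1.14, and that of all symbols was -0.00. Of all 26 genes, 17 had a ratio above 1 and 9 under 1. Few symbols passed the fold here, so a ratio within it could still be high among all symbols. A larger ratio was found for 2.03% of all symbols past the filter in the case of Col14a1 and for 6.44% in that of Col1a1. At the other end, 8.64% had a smaller ratio than Col8a1. With no filter on level, 1 of the 26 was higher and 2 were lower, beside 5.21% higher and 6.98% lower over all symbols above 0 in both groups. The summed level of all 26 genes was 2295 FPKM in the group labelled Neat1 shRNA and 2041 FPKM in control shRNA, a ratio of 1.12. Col1a1 and Col3a1 made up 55.5% of it in the group labelled Neat1 shRNA and 54.3% in control shRNA.

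Of the fibrillar genes, Col3a1 was at 709.0 FPKM in the group labelled Neat1 shRNA and 643.2 FPKM in control shRNA, a ratio of 1.10, and it was again the most abundant collagen. Col1a1 was at 563.8 FPKM in the group labelled Neat1 shRNA and 464.5 FPKM in control shRNA, a ratio of 1.21. Col5a3 was at 125.8 FPKM in the group labelled Neat1 shRNA and 97.2 FPKM in control shRNA, a ratio of 1.29. Its partner Col5a2 was at 89.4 FPKM in the group labelled Neat1 shRNA and 89.0 FPKM in control shRNA, a ratio of 1.005, and Col5a1 at 70.0 FPKM in the group labelled Neat1 shRNA and 65.2 FPKM in control shRNA, a ratio of 1.07. Among the type V chains Col5a3 thus had the highest ratio here and the lowest in the SNL and Control table. Col27a1 was at 26.7 FPKM in the group labelled Neat1 shRNA and 27.1 FPKM in control shRNA.

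Col2a1 was the gene past the fold. It was at 6.64 FPKM in the group labelled Neat1 shRNA and 3.46 FPKM in control shRNA, a ratio of 1.92, and 0.237% of all symbols past the filter had a larger ratio. It was also the fibrillar gene that was lower in SNL than in Control, at 7.44 FPKM in SNL and 14.97 FPKM in Control, in the separately normalized table. Of the 2 cartilage genes that were lower after SNL, Lect1 was at 23.1 FPKM in the group labelled Neat1 shRNA and 14.6 FPKM in control shRNA, and Hapln1 was below the filter at 0.0193 FPKM in the group labelled Neat1 shRNA and 0.0551 FPKM in control shRNA. Lect1 was the only higher gene among 7 cartilage genes past the filter, and none was lower. The cartilage list summed to 41.8 FPKM in the group labelled Neat1 shRNA and 34.2 FPKM in control shRNA, and Acan was at 0.264 FPKM in the group labelled Neat1 shRNA and 0.125 FPKM in control shRNA, so this defining marker was low in each. The part of cartilage genes in the Col2a1 value was not tested. The type XI chains lay within the fold, Col11a2 at 5.16 FPKM in the group labelled Neat1 shRNA and 3.99 FPKM in control shRNA and Col11a1 at 4.26 FPKM in the group labelled Neat1 shRNA and 4.16 FPKM in control shRNA.

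The type IV and FACIT genes past the filter had ratios above 1 without passing the fold. Col4a1 was at 124.8 FPKM in the group labelled Neat1 shRNA and 99.6 FPKM in control shRNA, a ratio of 1.252, and Col4a4 at 4.20 FPKM in the group labelled Neat1 shRNA and 3.20 FPKM in control shRNA, a ratio of 1.31. Col14a1 was at 34.5 FPKM in the group labelled Neat1 shRNA and 24.8 FPKM in control shRNA, and its ratio of 1.39 was the largest short of the fold. Col16a1 was at 180.3 FPKM in the group labelled Neat1 shRNA and 151.1 FPKM in control shRNA, a ratio of 1.19. Col9a2 was at 16.6 FPKM in the group labelled Neat1 shRNA and 13.3 FPKM in control shRNA, a ratio of 1.245.

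The remaining collagens leaned the other way, with a median log2 ratio of -0.18 over 6 genes. Col8a1 was at 45.5 FPKM in the group labelled Neat1 shRNA and 55.9 FPKM in control shRNA, a ratio of 0.815 and the lowest of the 20 genes. Col18a1 was at 101.3 FPKM in the group labelled Neat1 shRNA and 114.7 FPKM in control shRNA, a ratio of 0.883. Thus the collagens with the largest ratios after SNL, Col8a1 and Col18a1, were among those with a ratio under 1 here, although neither passed the fold. Col15a1, the other multiplexin, was at 45.2 FPKM in the group labelled Neat1 shRNA and 38.4 FPKM in control shRNA, so that Col18a1 was 2.24 times Col15a1 in the group labelled Neat1 shRNA and 2.99 times in control shRNA. Col6a2 was at 133.7 FPKM in the group labelled Neat1 shRNA and 132.7 FPKM in control shRNA. Col23a1 was at 2.87 FPKM in the group labelled Neat1 shRNA and 3.48 FPKM in control shRNA, and Col13a1 at 2.46 FPKM in the group labelled Neat1 shRNA and 2.80 FPKM in control shRNA. The 6 genes below the filter were Col1a2, Col4a3, Col6a4, Col9a1, Col17a1 and Col26a1, with levels from 0.116 FPKM (Col9a1) to 0.903 FPKM (Col4a3) in the group labelled Neat1 shRNA.

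Of the 12 genes higher in SNL than in Control, 11 passed the filter in the shRNA comparison. Their ratios there ranged from 0.815 to 1.252 with a median of 1.07, and 8 were above 1, 3 were under 1 and none passed the fold in either direction. The list counts that follow are to be read beside 1.27% higher and 3.51% lower over all symbols past the filter. The 26 biosynthesis genes past the filter had a median log2 ratio of -0.04, with 1 higher and 1 lower. Tll1 was higher, at 1.38 FPKM in the group labelled Neat1 shRNA and 0.831 FPKM in control shRNA. Its call leans on the group in which it was high, since its control shRNA level was under 1. Adamts3 was lower, at 1.79 FPKM in the group labelled Neat1 shRNA and 2.94 FPKM in control shRNA. Among 20 collagen-binding genes, Fmod, fibromodulin, was higher at 10.4 FPKM in the group labelled Neat1 shRNA and 6.77 FPKM in control shRNA. Postn was lower at 13.8 FPKM in the group labelled Neat1 shRNA and 28.4 FPKM in control shRNA. Fibroblast markers summed to 358 FPKM in the group labelled Neat1 shRNA and 336 FPKM in control shRNA, with none of 8 higher and 1 lower. Mural markers summed to 297 FPKM in the group labelled Neat1 shRNA and 201 FPKM in control shRNA, with 3 of 10 higher. Schwann cell markers summed to 7305 FPKM in the group labelled Neat1 shRNA and 5279 FPKM in control shRNA, with 1 of 9 higher (Mag, a myelin protein gene, 28.2 FPKM in the group labelled Neat1 shRNA and 15.6 FPKM in control shRNA) and none lower. Perineurial markers summed to 382 FPKM in the group labelled Neat1 shRNA and 360 FPKM in control shRNA, with none of 6 past the fold, and macrophage markers to 185 FPKM in the group labelled Neat1 shRNA and 246 FPKM in control shRNA, with 2 of 9 lower. Satellite glia markers summed to 4762 FPKM in the group labelled Neat1 shRNA and 4153 FPKM in control shRNA, with none of 7 past the fold. The part of these cells in the collagen values was not tested.

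**Figure D5:**
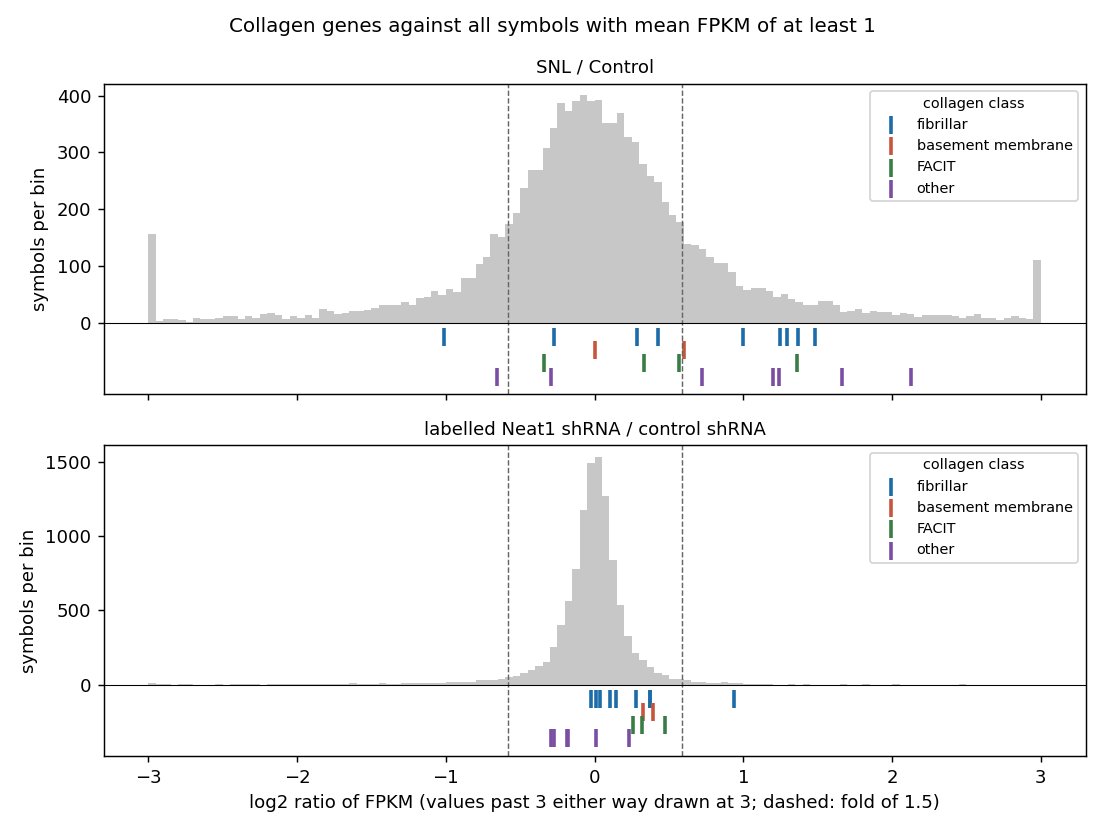
Distribution of log2 ratios of all symbols with a mean FPKM of at least 1 (grey histogram, symbols per bin), with collagen genes as ticks coloured by class below it, for SNL over Control (top) and the group labelled Neat1 shRNA over control shRNA (bottom). Dashed lines mark a fold of 1.5. In the top panel 12 ticks lie right of the upper line, up to Col8a1 at 2.13, and in the bottom panel the tick of Col2a1 at 0.94 stands alone beyond it.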

How the data were processed

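RNA of the L5 DRG was sequenced from 4 groups of 3 libraries, grouped by the sample titles. Per the methods of the study, the authors made stranded libraries of polyadenylated RNA, aligned paired reads to rn5 with RefSeq genes and assembled transcripts. Cufflinks and rn5 are also named in the processing notes that the submitters gave. The FPKM values that the authors deposited are 1 pooled value per group, in 1 table for each of the 2 comparisons (28578 and 28745 rows), and library depth is unknown. The deposited columns of the authors' own comparison (log2 fold change, test statistic, p-value, q-value and a significance mark) were not used.

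From the deposited FPKM, ratios were computed with SNL over Control and Neat1 shRNA over control shRNA, and called past a fold of 1.5 where the mean FPKM was at least 1. Rows that join several symbols (404 and 402) and unnamed rows (10418 and 10624) were left out, apart from the Neat1 and Col7a1 rows. Of 45 collagen symbols listed, 26 matched. Every member may be named, and from the other lists up to 4 genes past the fold with the largest change and the 2 with the highest mean FPKM. Cartilage markers outside that rule (Acan and Matn1) were named as defining markers. Members, lists, printed promoters and tests were chosen with earlier results of these data known. Deposited starts count from 0, since end minus start matched the RefSeq length for 1145 symbols and plus 1 for 141, and are printed counting from 1. Promoters and names came from RefSeq tables of GRCr8. The counting of calls was tested on simulated data. Alternatives were no filter or a mean of at least 5, a looser fold of 1.25 and a stricter fold of 2, scaling to the median of all symbols, summed rows, FPKM + 1, and type IV with Col15a1 and Col18a1. Analyses used Python 3.11.15, numpy 2.4.6, pandas 2.3.3 and matplotlib 3.10.9.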

Additional observations from a re-analysis of the deposited data

Results flagged for a closer look

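A type VII collagen signal lay outside the 26 genes, because the authors' assembly joined it with a neighbour. Type VII collagen forms the anchoring fibrils that fasten basement membranes to connective tissue. The row that joins Col7a1 and Mir711 on chromosome 8 (rn5, 117046194 to 117078589) was at 4.76 FPKM in SNL and 0.669 FPKM in Control, a ratio of 7.12 that was larger than the ratio of every collagen gene past the filter. Its Control level was under 1 FPKM, so this ratio leans on the group in which the row was high. The row was singled out as a signal that the comparisons above do not use, with an SNL level above that of Control. In the shRNA table the joined row also takes in Ucn2, and it was at 7.62 FPKM in the group labelled Neat1 shRNA and 9.04 FPKM in control shRNA, a ratio of 0.843. How much of either row comes from Col7a1 itself was not tested.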

How the results depend on the processing

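No paired analysis was possible because the tables hold 1 pooled value per group, and for the same reason leaving out replicates and a replicate block were not run. The count of 12 genes higher in SNL lay between 9 (fold of 2) and 15 (the looser fold) over all alternatives. The count of 2 lower was 1 with a fold of 2 and 1 on FPKM + 1, where Col23a1 (log2 ratio -0.58) no longer passed the fold, and neither did Col26a1 (0.37). The median log2 ratio of 0.66 was 0.60 with no filter, 1.22 with a mean of at least 5 and 0.55 on FPKM + 1. In the shRNA comparison, the count of 1 higher was 6 with the looser fold and 0 with a fold of 2, and the count of 0 lower was 2 with no filter (Col26a1 and Col6a4, each under 1 FPKM in both groups). The median of 0.19 was 0.12 with no filter, 0.23 with a mean of at least 5 and 0.18 on FPKM + 1. Shares over all symbols were not counted at the looser fold or a fold of 2. After SNL, 28.6% of symbols past the filter had a larger ratio than Col14a1 (1.26). For Col5a1 (1.996) it was 9.68%. In the shRNA comparison, 4.89% had a larger ratio than Col4a1 (1.252), the lowest of the 6. At the looser fold, 3 collagen genes were lower in SNL and 0 in the group labelled Neat1 shRNA. Adding Col15a1 and Col18a1 to the type IV chains gave a median log2 ratio of 0.90 in place of 0.30 after SNL, and of 0.28 in place of 0.36 in the shRNA comparison. With no filter, where Col4a3 enters, the type IV median after SNL was -0.00. No called gene and no median over all collagen genes changed sign under these alternatives. Where a value moved, the cause was not tested beyond the setting itself. Low values such as that of Col17a1 rest on few reads of unknown number.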

Other observations

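Levels set across the separately normalized tables show how the SNL ganglia with the control vector compared with SNL ganglia alone, a pair that also differs in the injection and the vector. Over 10429 symbols past the filter in both tables, the median ratio of SNL+control shRNA over SNL was 1.09, with 9.34% above the fold of 1.5 and 2.05% below its inverse. Of 20 collagen genes, 13 had a ratio above 1 and the median was 1.10. Those above the fold were Col13a1 (2.80 FPKM in SNL+control shRNA and 1.13 FPKM in SNL), Col8a1 (55.9 FPKM in SNL+control shRNA and 25.5 FPKM in SNL) and Col18a1 (114.7 FPKM in SNL+control shRNA and 71.3 FPKM in SNL). Those below its inverse were Col2a1 (3.46 FPKM in SNL+control shRNA and 7.44 FPKM in SNL) and Col23a1 (3.48 FPKM in SNL+control shRNA and 6.03 FPKM in SNL). This comparison shares the SNL group with that of SNL and Control, so nothing is read from the likeness of their ratios. Injection, vector and separate normalization cannot be told apart here.

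Col9a1, a cartilage-type chain below the filter in the shRNA table, was at 0.116 FPKM in the group labelled Neat1 shRNA and 0.129 FPKM in control shRNA, and at 1.01 FPKM in SNL and 1.28 FPKM in Control. Its level thus differed more between the tables than within either. Col9a2, its partner chain, was at 13.3 FPKM in control shRNA and 13.0 FPKM in SNL. The Col9a2 rows are not the same stretch, at 17188 bp in the shRNA table and 186291 bp in the SNL and Control table, so this contrast is uncertain.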
